A study of Homo sapiens with 6 samples.

Results

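The genes described here are 35 genes of glucose metabolism. They carry glucose into the cell, break it down to pyruvate, make or move lactate, restrain pyruvate oxidation in the mitochondria, or run the pentose phosphate pathway. They were taken by gene name, from a list drawn up with earlier results of these data known, and all 35 were found among the 57820 genes listed. The RNA-seq compared 3 WT and 3 ARID1A-KO samples of AID-DIvA cells, numbered 3 to 5 in each genotype. AID-DIvA cells derive from U2OS, an osteosarcoma line, and carry the inducible restriction enzyme AsiSI, with which DNA double-strand breaks can be made at known places. All 6 samples were labelled untreated, so no breaks had been induced. ARID1A is a subunit of the BAF chromatin remodelling complex. The knockout was made with a pair of Cas9 guide RNAs and grown as clones, and which clone or how many clones were sequenced is not given in the sources used here. A difference between the genotypes and a difference between a clone and its parental cells cannot be told apart. The study describes its RNA-seq replicates as independent experiments.

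In glycolysis, hexokinase traps glucose in the cell, phosphofructokinase commits it to breakdown, and aldolase splits the sugar. The lower enzymes, from GAPDH to pyruvate kinase, make ATP and NADH. Lactate dehydrogenase turns pyruvate into lactate and so returns NAD+ to GAPDH, and the monocarboxylate transporters carry lactate out of or into the cell. Pyruvate dehydrogenase kinases hold back pyruvate dehydrogenase, the enzyme that oxidises pyruvate inside the mitochondria. The pentose phosphate pathway draws on the first product of hexokinase and makes NADPH and the ribose of nucleotides. Many of these enzymes exist as isozymes from separate genes, and fast glycolysis with lactate release is a well known habit of tumour cell lines such as osteosarcoma lines.

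For ARID1A itself, the WT samples held 166 to 178 CPM (counts scaled to library sizes after TMM) and the ARID1A-KO samples 25.1 to 27.5 CPM. By the quasi-likelihood test of edgeR, with p adjusted after Benjamini and Hochberg, the log2 fold change was -2.74 with an SE of 0.07 (adjusted p = 9.66e-08). Samples held 54512105 to 84088708 counts in all, and 5.85 to 6.08% of them came from mitochondrial genes in WT and 6.31 to 6.99% in ARID1A-KO samples. Of the 19599 genes with enough counts to be tested, 36.2% passed an adjusted p under 0.05. Of all genes tested 17.8% were higher and 18.4% were lower in ARID1A-KO cells, so the knockout line differed broadly from WT cells. Below, a gene that passed is called changed, and a log2 fold change is ARID1A-KO over WT. The summed TPM (transcripts per length, scaled to the same total in each sample) of 9 osteosarcoma and mesenchymal markers was 2142 to 2358 in WT and 3033 to 3343 in ARID1A-KO samples. Of these markers VIM rose while SPARC, COL1A1 and ALPL fell. Of the 6 tested, VIM alone had a positive log2 fold change, 5 had a negative change, and the median was -0.46. The late bone genes SP7, BGLAP and IBSP had too few counts to be tested. Markers of other cells were low, with summed TPM of 8.68 to 12.5 in WT and 12.6 to 15.0 in ARID1A-KO samples for 5 epithelial genes, 1.02 to 1.78 and 0.400 to 0.740 for 5 leukocyte genes, and 0.719 to 1.06 and 1.03 to 1.08 for 3 endothelial genes. The part of these marker changes in the results below was not tested.

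The promoters of 4 genes are shown as context for the changes. Of the changed genes, only 2 that rose and 3 that fell had a single start in the RefSeq promoter table. The promoters shown are those of both rises, ALDOC and SLC2A1, and of the largest falls, LDHB and GAPDH. They run over the 250 bases before the start in GRCh38.p14, whereas the count tables use GRCh37. In that build they lie at chr17:28576896-28577145 on the minus strand for ALDOC, chr1:42958869-42959118 on the minus strand for SLC2A1, chr12:21657843-21658092 on the minus strand for LDHB, and chr12:6535014-6535263 on the plus strand for GAPDH. Capitals mark ACGTG or GCGTG on either strand, the core letters that hypoxia-inducible factors bind. CACGTG, the E-box read by MYC and by the glucose-responsive factors MondoA and ChREBP, contains ACGTG and so is in capitals too.
ALDOC: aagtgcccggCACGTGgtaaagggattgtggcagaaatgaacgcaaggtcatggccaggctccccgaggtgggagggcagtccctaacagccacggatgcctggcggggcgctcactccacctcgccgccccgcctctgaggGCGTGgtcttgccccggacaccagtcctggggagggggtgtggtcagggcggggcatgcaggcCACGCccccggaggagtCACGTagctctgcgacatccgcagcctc
SLC2A1: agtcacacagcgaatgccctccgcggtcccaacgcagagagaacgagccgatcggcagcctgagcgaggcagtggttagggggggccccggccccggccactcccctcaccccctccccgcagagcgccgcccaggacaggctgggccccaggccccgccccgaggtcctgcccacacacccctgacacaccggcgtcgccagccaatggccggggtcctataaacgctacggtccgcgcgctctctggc
LDHB: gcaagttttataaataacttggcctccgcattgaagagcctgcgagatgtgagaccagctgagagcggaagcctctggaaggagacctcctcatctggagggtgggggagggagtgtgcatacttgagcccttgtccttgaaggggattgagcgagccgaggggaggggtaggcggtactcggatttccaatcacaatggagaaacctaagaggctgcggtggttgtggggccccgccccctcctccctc
GAPDH: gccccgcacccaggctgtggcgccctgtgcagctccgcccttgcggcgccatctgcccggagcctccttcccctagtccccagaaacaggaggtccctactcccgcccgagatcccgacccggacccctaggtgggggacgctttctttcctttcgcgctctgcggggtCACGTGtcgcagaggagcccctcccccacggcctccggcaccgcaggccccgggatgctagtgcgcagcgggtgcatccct
ALDOC held 4 separate capital stretches, 1 of them a CACGTG, GAPDH held 1 stretch, which is a CACGTG, and SLC2A1 and LDHB held none. The GC content was 68.4% for ALDOC, 72.4% for SLC2A1, 58.0% for LDHB and 71.2% for GAPDH. Across the 22114 genes with a single start, 42.2% of such windows held ACGTG or GCGTG and 6.34% held CACGTG. Of the 35 genes, 32 were in the table, and of the 20 with a single start 11 held ACGTG or GCGTG, and 2, ALDOC and GAPDH, held CACGTG. Of the 15 of these 20 that did not change, 9 held ACGTG or GCGTG and 0 held CACGTG.

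The 35 genes moved in both directions in ARID1A-KO cells. All 35 genes had enough counts to be tested, and 13 changed (37.1%, against 36.2% of all genes tested), 7 higher and 6 lower, so the share that changed was near that of all genes. The rises were SLC2A1, HK1, PFKP, ALDOC, PFKFB2, ENO3 and SLC16A3, and the falls were GAPDH, PGAM1, LDHA, LDHB, SLC16A1 and PDK1. The changes were small. Log2 fold changes ran from -0.37 for LDHA to 0.93 for ENO3, no member changed by 2-fold or more (2113 of all genes tested did), and the median absolute log2 fold change was 0.19 against 0.27 over all genes tested. The median log2 fold change was 0.027, against 0.0066 over all genes tested. WT and ARID1A-KO samples had no CPM range in common for 19 of the 35 genes, 11 higher and 8 lower, and this held for 49.5% of all genes tested. Without ARID1A-KO replicate 4, the sample with the fewest counts, 8 of the 35 changed (22.9%, 5 higher and 3 lower), while the share of all genes tested dropped to 26.2%. Scaling by library totals alone gave 10 higher and 5 lower, and all genes tilted the same way there (4175 higher and 3081 lower). An offset for GC content gave 6 higher and 8 lower, with 3334 and 3671 over all genes.

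**Figure D1:**
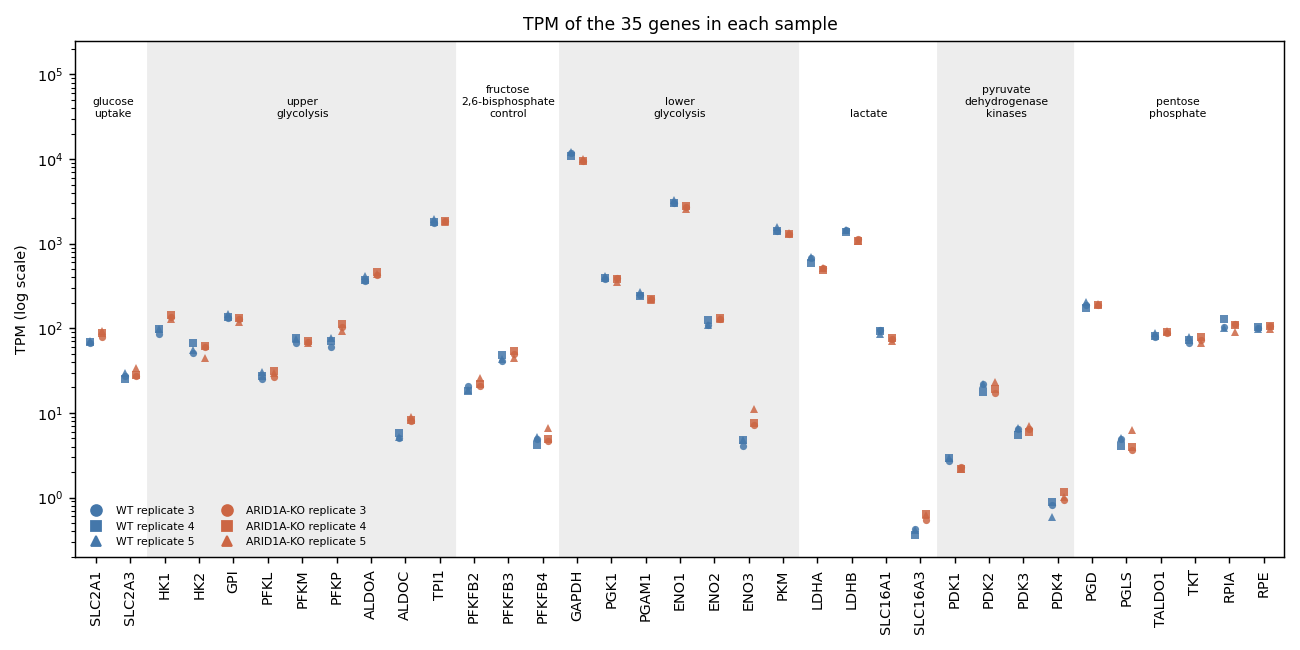
TPM of the 35 genes (log scale) in each of the 3 WT and 3 ARID1A-KO samples, grouped by role, with 1 point per sample and a marker shape per replicate number. Levels span from SLC16A3, below 1 TPM in every sample, to GAPDH at 9405 to 12014 TPM, and the shift between genotypes is small beside that span.

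In all, the 35 genes held 22475 ± 1027 TPM in WT and 19656 ± 135 TPM in ARID1A-KO samples (SD, n = 3 each), which was 1.96 to 2.35% of all TPM. GAPDH alone made up 51.3% ± 0.971 of this sum in WT and 49.0% ± 1.17 in ARID1A-KO samples. Without GAPDH, the sum was 10935 ± 509 TPM in WT and 10019 ± 162 TPM in ARID1A-KO samples. By role, the lower enzymes summed to 16860 ± 811 TPM in WT and 14366 ± 208 TPM in ARID1A-KO samples and the lactate genes to 2171 ± 109 and 1680 ± 39.9 TPM, in both cases without overlap. The upper enzymes, from hexokinase to TPI1, summed to 2687 ± 164 and 2819 ± 67.5 TPM, and these sums overlapped. These sums are descriptions, weighted to the most abundant gene of each role, and were not tested.

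Of the glucose transporters, SLC2A1 rose and SLC2A3 did not pass the test. SLC2A1 (GLUT1, the main basal glucose carrier of cultured cells) lies at chr1:43391052-43424530 on the minus strand in GRCh37, the build of all positions below. Its TPM was 67.2, 69.3 and 71.3 in the WT samples and 80.0, 87.2 and 91.9 in the ARID1A-KO samples. Every ARID1A-KO sample was above every WT sample. The log2 fold change was 0.32 (SE 0.06, edgeR adjusted p = 0.00275), and its neighbours, the 146 other tested genes less than 5 Mb away, had a median of 0.14. SLC2A3 (GLUT3, a carrier of high affinity) had 27.4 ± 2.42 TPM in WT and 29.9 ± 3.89 TPM in ARID1A-KO samples, which overlapped (log2 fold change 0.13, edgeR adjusted p = 0.280). SLC2A14, a near copy of SLC2A3, held 84 to 99 counts in WT and 42 to 73 in ARID1A-KO samples against 2891 to 5511 for SLC2A3, and fell by 0.87 on the log2 scale (edgeR adjusted p = 0.00466).

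Among the 9 genes of upper glycolysis, HK1, PFKP and ALDOC rose and 6 did not pass the test (33.3% changed, against 36.2% of all genes tested). HK1, the hexokinase that most tissues use, lies at chr10:71029740-71161638 on the plus strand. It had 86.0, 97.7 and 97.8 TPM in WT samples and 134, 145 and 128 TPM in ARID1A-KO samples. The groups stood well apart, with a log2 fold change of 0.54 (SE 0.08, edgeR adjusted p = 0.00107). The 94 neighbours of HK1 had a median of 0.40, and HK1 was at 0.13 and no longer passed once it was taken off (adjusted p = 0.253). HK2, the inducible hexokinase of muscle and tumours, had 57.5 ± 8.79 and 55.7 ± 9.45 TPM and a log2 fold change of -0.037, with a 95% interval from -0.38 to 0.30.

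PFKP, the platelet-type subunit of phosphofructokinase, lies at chr10:3108525-3179904 on the plus strand and had 59.4, 70.9 and 75.8 TPM in WT samples and 103, 112 and 91.9 TPM in ARID1A-KO samples. The lowest ARID1A-KO sample was above the highest WT sample. Its log2 fold change was 0.58 (SE 0.11, edgeR adjusted p = 0.00347), while its 53 neighbours had a median of -0.019. The liver-type subunit PFKL (27.6 ± 2.40 and 29.2 ± 2.49 TPM) and the muscle-type subunit PFKM (72.2 ± 4.82 and 69.2 ± 1.23 TPM) overlapped between the genotypes, with log2 fold changes of 0.085 and -0.053. PFKP passed the test while PFKL and PFKM did not, which is not itself a test of the make-up of phosphofructokinase transcripts. That make-up is given with the isozyme shares below.

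ALDOC, the brain-type aldolase, lies at chr17:26900133-26904282 on the minus strand and is 1 of the 4 genes whose promoters are shown above. Its TPM was 5.06, 5.82 and 5.16 in WT samples and 8.02, 8.15 and 8.92 in ARID1A-KO samples, and the groups did not overlap. The log2 fold change was 0.65 (SE 0.11, edgeR adjusted p = 0.00168). A second entry on the same strand, RP11-192H23.4, covers the whole of ALDOC, held 183 to 396 counts against 270 to 679 for ALDOC, and had a log2 fold change of 0.36 (edgeR adjusted p = 0.0654), so reads of the shared stretch could have been assigned to either entry or left out. ALDOA, the muscle-type aldolase and the major one here, had 383 ± 29.7 TPM in WT and 438 ± 17.6 TPM in ARID1A-KO samples, which did not overlap, but did not pass the test (log2 fold change 0.20, edgeR adjusted p = 0.0727). It passed without WT replicate 5 (0.27, edgeR adjusted p = 0.0339). With all samples it passed under upper-quartile scaling (0.22, edgeR adjusted p = 0.0411) and library totals alone (0.25, edgeR adjusted p = 0.0166).

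TPI1, triosephosphate isomerase, was the most abundant gene of upper glycolysis, with 1756, 1802 and 1963 TPM in WT and 1872, 1865 and 1825 TPM in ARID1A-KO samples. All 3 ARID1A-KO samples lay within the range of the WT samples, and the log2 fold change of 0.018 had a 95% interval from -0.15 to 0.19. GPI, which turns the glucose phosphate of hexokinase into the fructose phosphate, had 138 ± 8.27 and 126 ± 6.29 TPM and a log2 fold change of -0.12 (95% interval from -0.30 to 0.058).

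The PFKFB enzymes make and remove the fructose bisphosphate that switches phosphofructokinase on. All 3 had a positive log2 fold change, and 1 of them passed the test (33.3%, against 36.2% of all genes tested). PFKFB2, the heart-type enzyme, had 19.4 ± 1.40 TPM in WT and 22.8 ± 2.61 TPM in ARID1A-KO samples, and its log2 fold change was 0.24 (edgeR adjusted p = 0.0378). Its CPM did not overlap between the groups, but its TPM did. It no longer passed without WT replicate 4 (0.20, adjusted p = 0.102), WT replicate 5 (0.22, adjusted p = 0.105), ARID1A-KO replicate 4 (0.26, adjusted p = 0.0678) or ARID1A-KO replicate 5 (0.17, adjusted p = 0.0987). PFKFB3, the inducible enzyme and the most abundant of the 3, had 41.6, 47.8 and 43.5 TPM in WT and 49.3, 54.2 and 44.4 TPM in ARID1A-KO samples. The third ARID1A-KO value lay inside the WT range, and the log2 fold change of 0.16 did not pass the test (edgeR adjusted p = 0.212), though it did without ARID1A-KO replicate 5 (0.26, adjusted p = 0.0333). PFKFB4, the testis-type enzyme, had 4.76 ± 0.558 and 5.39 ± 1.02 TPM and a log2 fold change of 0.19 (edgeR adjusted p = 0.320).

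Of the 7 genes of lower glycolysis, GAPDH and PGAM1 fell, ENO3 rose and 4 did not pass the test (42.9% changed, against 36.2% of all genes tested). GAPDH, the enzyme that makes the NADH of glycolysis, was the most abundant of all 35 genes and lies at chr12:6643093-6647537 on the plus strand. Its TPM was 11744, 10862 and 12014 in WT samples and 9535, 9405 and 9971 in ARID1A-KO samples. All 3 ARID1A-KO samples were below all 3 WT samples, by a log2 fold change of -0.25 (SE 0.08, edgeR adjusted p = 0.0279). GAPDH is often used to normalise expression between samples, and here it was 0.839-fold in ARID1A-KO relative to WT cells. The call did not hold without WT replicate 3 (-0.26, adjusted p = 0.0890), WT replicate 5 (-0.22, adjusted p = 0.106) or ARID1A-KO replicate 4 (-0.23, adjusted p = 0.134), nor with the median of its 153 neighbours taken off (-0.20, adjusted p = 0.0719).

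PGAM1, phosphoglycerate mutase, had 254 ± 12.5 TPM in WT and 220 ± 4.76 TPM in ARID1A-KO samples (log2 fold change -0.20, edgeR adjusted p = 0.0461). The groups did not overlap, while its 113 neighbours had a median of 0.29. Relative to them the change was larger (-0.49, edgeR adjusted p = 0.00068). The call sat at the threshold and was lost on leaving out any single sample, where the log2 fold change ran from -0.23 without WT replicate 3 to -0.15 without WT replicate 5 and the adjusted p reached 0.138 without the latter. PGAM1 has 13 pseudogene entries in the tables, which held at most 0.749% of its own count in any sample, the highest such share among the 35 genes.

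The enolases differed among themselves. ENO3, the muscle enolase, had the largest rise of the 35 genes and lies at chr17:4851387-4860426 on the plus strand. It had 4.09, 4.82 and 4.80 TPM in WT samples and 7.24, 7.64 and 11.1 TPM in ARID1A-KO samples. The third ARID1A-KO sample stood above the other two, which were themselves above every WT sample. The log2 fold change was 0.93 (SE 0.16, edgeR adjusted p = 0.00164), and it ran from 0.74 to 1.02 over the fits that each left out 1 sample. ENO1, the enolase of most cells, had 3084 ± 138 TPM in WT and 2690 ± 87.7 TPM in ARID1A-KO samples, without overlap (log2 fold change -0.19, edgeR adjusted p = 0.0847). ENO2, the neuronal enolase, had 114 ± 9.83 and 131 ± 1.70 TPM, also without overlap (log2 fold change 0.21, edgeR adjusted p = 0.0540). Neither ENO1 nor ENO2 passed the test. ENO1 did so with DESeq2 (-0.19, adjusted p = 0.0484), with the GC content offset (-0.27, adjusted p = 0.0219) and with the neighbours' median taken off (-0.28, adjusted p = 0.0232). ENO2 passed in 7 of the 18 alternatives, among them without WT replicate 4 (0.29, adjusted p = 0.0117) and without ARID1A-KO replicate 5 (0.24, adjusted p = 0.0428). The first 499 bases of ENO2 are shared on the same strand with LRRC23, which held at most 23.9% of the ENO2 count and was itself higher (log2 fold change 0.66, edgeR adjusted p = 0.0011).

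PKM, the pyruvate kinase of most tissues and tumours, had 1468 ± 110 TPM in WT and 1308 ± 23.7 TPM in ARID1A-KO samples. The groups did not overlap, and the log2 fold change of -0.16 did not pass the test (edgeR adjusted p = 0.141), though it did with the GC content offset (-0.24, adjusted p = 0.0371). The counts are per gene and do not separate its M1 and M2 splice forms. PGK1, phosphoglycerate kinase, had 396 ± 16.0 and 372 ± 19.8 TPM and a log2 fold change of -0.080 (95% interval from -0.26 to 0.098).

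All 4 lactate genes changed, LDHA, LDHB and SLC16A1 downwards and SLC16A3 upwards, where 36.2% of all genes tested did, and LDHB lies among genes that were lower as well. LDHA, the muscle-type subunit of lactate dehydrogenase, lies at chr11:18415935-18429972 on the plus strand and had 683, 586 and 704 TPM in WT samples and 510, 492 and 514 TPM in ARID1A-KO samples. LDHB, the heart-type subunit, lies at chr12:21788276-21910791 on the minus strand and had 1441, 1368 and 1459 TPM in WT samples and 1138, 1078 and 1084 TPM in ARID1A-KO samples. For both subunits every ARID1A-KO sample was below every WT sample, and the falls were of like size. The log2 fold change was -0.37 for LDHA (SE 0.08, edgeR adjusted p = 0.00656) and -0.36 for LDHB (SE 0.07, edgeR adjusted p = 0.00345). Their surroundings differed. The 55 neighbours of LDHA had a median of 0.014 and the 37 neighbours of LDHB a median of -0.43. With those medians taken off, LDHA stayed at -0.39 and LDHB turned to 0.065 (edgeR adjusted p = 0.518), so LDHB fell by less than the median of the genes around it.

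SLC16A1 (MCT1), which carries lactate both ways, lies at chr1:113454469-113499635 on the minus strand and had 95.4, 92.1 and 84.9 TPM in WT and 75.4, 76.8 and 70.5 TPM in ARID1A-KO samples. The groups did not overlap, and the log2 fold change was -0.28 (SE 0.07, edgeR adjusted p = 0.0133). SLC16A3 (MCT4), the lactate exporter of highly glycolytic cells, lies at chr17:80186273-80219005 on the plus strand and was barely expressed. It had 76, 71 and 67 counts in WT and 105, 96 and 147 counts in ARID1A-KO samples, or 0.421, 0.363 and 0.417 TPM and 0.541, 0.635 and 0.629 TPM. All 3 ARID1A-KO samples were above the WT samples, by a log2 fold change of 0.59 (SE 0.16, edgeR adjusted p = 0.0162). This call was lost with the GC content offset (0.33, adjusted p = 0.124) and without ARID1A-KO replicate 4 (0.55, adjusted p = 0.0670).

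**Figure D2:**
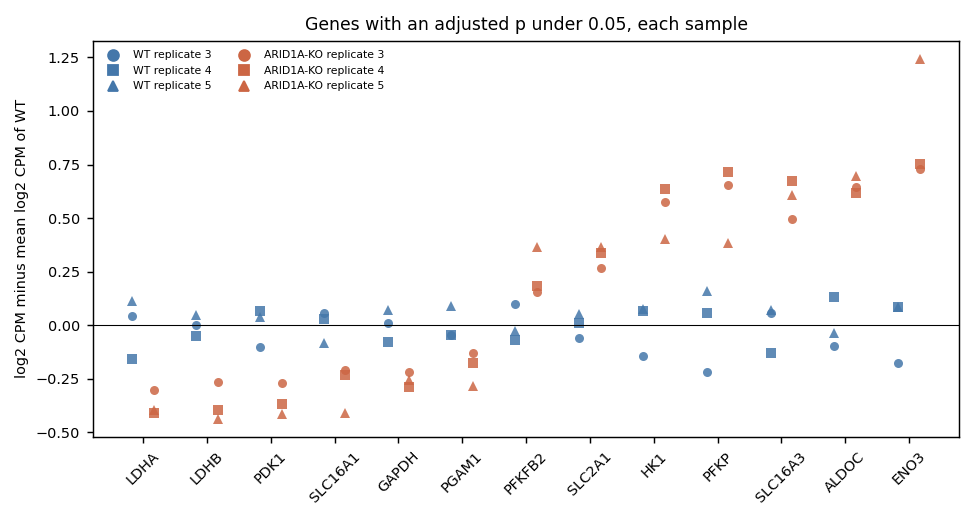
The 13 changed genes, ordered by log2 fold change, as log2 CPM in each sample minus the mean log2 CPM of the 3 WT samples, with the line at 0 marking that mean and a marker shape per replicate number. For each of the 13 genes the 3 ARID1A-KO points lie on 1 side of the 3 WT points, and the gap is narrowest for PFKFB2 and PGAM1, the changed genes nearest to the threshold.

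Among the 4 pyruvate dehydrogenase kinases, PDK1 fell and PDK2, PDK3 and PDK4 did not pass the test (25.0% changed, against 36.2% of all genes tested). PDK1, the kinase most tied to hypoxia, lies at chr2:173420101-173489823 on the plus strand and had 2.69, 2.97 and 2.90 TPM in WT samples and 2.28, 2.20 and 2.21 TPM in ARID1A-KO samples. The groups did not overlap, and the log2 fold change was -0.35 (SE 0.09, edgeR adjusted p = 0.0139). It was -0.20 with an exonic length offset (adjusted p = 0.123) and -0.34 without ARID1A-KO replicate 4 (adjusted p = 0.0623), and passed in neither. PDK2, the most abundant of the 4, had 22.1, 17.9 and 22.1 TPM in WT and 17.4, 19.0 and 23.2 TPM in ARID1A-KO samples, with the groups overlapping (log2 fold change -0.053, 95% interval from -0.30 to 0.19). PDK3 had 6.20 ± 0.633 and 6.52 ± 0.531 TPM (log2 fold change 0.080). PDK4, the kinase induced by fasting, had 48 to 87 counts in WT and 89 to 121 in ARID1A-KO samples, which were higher without overlap, but its log2 fold change of 0.45 (SE 0.19) did not pass the test (edgeR adjusted p = 0.0987).

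None of the 6 pentose phosphate genes changed, where 36.2% of all genes tested did, and their median log2 fold change was 0.0071. By edgeR's test 0 of the 6 had an unadjusted p under 0.05, and DESeq2 called 0. PGD, which makes NADPH, was the most abundant, with 187, 176 and 204 TPM in WT and 190, 190 and 196 TPM in ARID1A-KO samples. The ARID1A-KO samples lay inside the WT range, with a 95% interval of the log2 fold change from -0.13 to 0.18. TKT, transketolase, had 73.2 ± 6.81 and 72.2 ± 5.74 TPM, with an interval from -0.23 to 0.20. RPIA, which makes ribose phosphate, had 111 ± 14.7 and 104 ± 11.9 TPM (interval from -0.36 to 0.19), and RPE, the epimerase beside it, 100.4 ± 1.93 and 103 ± 4.60 TPM (interval from -0.10 to 0.20). TALDO1, transaldolase, had 82.9 ± 5.08 and 90.5 ± 2.65 TPM, and its log2 fold change of 0.13 (interval from -0.014 to 0.28) stood below the median of 0.32 of its 88 neighbours. The CPM of TALDO1 was higher in ARID1A-KO samples without overlap, though its TPM overlapped. It passed with library totals alone (0.18, edgeR adjusted p = 0.0428). PGLS, the lactonase, was low and uneven, with 4.97, 4.11 and 5.07 TPM in WT and 3.61, 4.01 and 6.28 TPM in ARID1A-KO samples. The ARID1A-KO samples spanned the WT range on both sides, and the interval from -0.46 to 0.42 leaves a change of either direction possible.

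**Figure D3:**
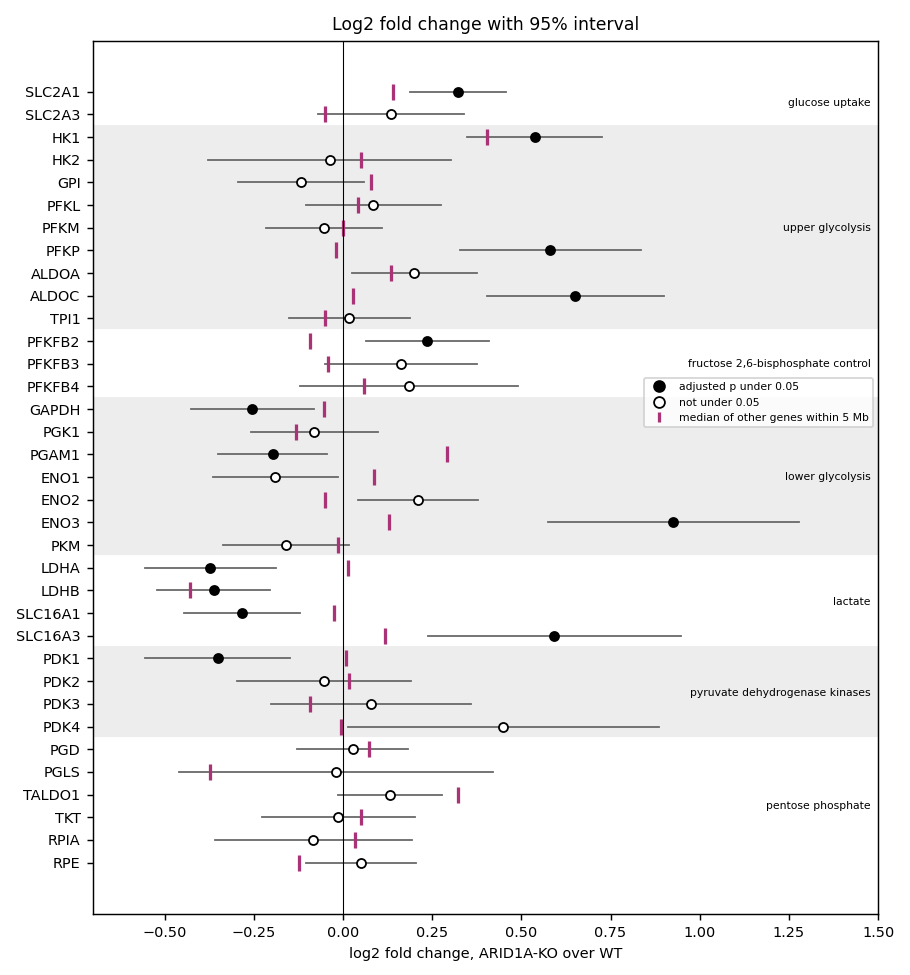
Log2 fold change of ARID1A-KO over WT for the 35 genes with its 95% interval, filled where the edgeR adjusted p was under 0.05, and, as an upright tick, the median log2 fold change of the other genes tested within 5 Mb. HK1 and LDHB lie close to their ticks (0.54 against 0.40, and -0.36 against -0.43), while PFKP, ALDOC, ENO3 and LDHA lie away from theirs, and the 6 pentose phosphate genes at the bottom are all open circles.

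The make-up of each isozyme family was compared as the share of its summed TPM within each sample, a measure that the scaling between samples does not touch. Of 18 shares in 9 families, 11 did not overlap between the genotypes. The CPM of 49.5% of all genes tested did not overlap either, but that figure is for single genes. No such figure was computed for shares. Shares of the same family add up to its whole, so they are not independent of each other. With 3 samples against 3 the two-sided exact permutation test cannot give a p below 0.1, which these 11 had, and the smallest Benjamini-Hochberg adjusted value over the 18 shares was 0.164, so none could pass the threshold.

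The largest shift was in phosphofructokinase. PFKP made up 39.2, 40.7 and 42.2% of its family in WT samples and 51.9, 52.3 and 48.5% in ARID1A-KO samples, and PFKM went from 42.9% ± 1.60 to 34.6% ± 1.47 (SD, n = 3 each). PFKM had the largest share in 2 of the 3 WT samples, and PFKP was first in every ARID1A-KO sample. PFKL went from 16.4% ± 0.588 to 14.5% ± 1.15, with the groups nearly touching (15.7% in WT replicate 4 and 15.6% in ARID1A-KO replicate 5). HK2 made up 37, 40.8 and 35.9% of the summed TPM of HK1 and HK2 in WT samples and 31.1, 29.9 and 26.0% in ARID1A-KO samples.

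The lactate dehydrogenase subunits had nearly the same mean proportion in both genotypes. LDHB was 68.5% ± 1.38 of the pair in WT and 68.5% ± 0.612 in ARID1A-KO samples, a difference of 0.072 percentage points, and the samples of the genotypes overlapped. Among the enolases, ENO1 went from 96.3% ± 0.400 to 95.1% ± 0.180, ENO2 from 3.56% ± 0.393 to 4.64% ± 0.0952 and ENO3 from 0.143% ± 0.0113 to 0.308% ± 0.0855. SLC16A3 was 0.440% ± 0.0478 of the pair of SLC16A1 and SLC16A3 in WT and 0.806% ± 0.0868 in ARID1A-KO samples, so SLC16A1 remained nearly all of this pair. SLC16A7, another monocarboxylate carrier outside the pair, had 9.92 ± 0.790 TPM in WT and 8.01 ± 0.338 TPM in ARID1A-KO samples. Its log2 fold change was -0.30 (edgeR adjusted p = 0.0274). ALDOC went from 1.38% ± 0.154 to 1.87% ± 0.135 of ALDOA and ALDOC together. PDK1 went from 9.43% ± 1.31 to 7.57% ± 0.928 and PDK3 from 20.3% ± 0.460 to 22.0% ± 1.54 of the kinases. The PDK1 groups were all but touching, at 8.4101% in WT replicate 3 and 8.4099% in ARID1A-KO replicate 3. With CPM in place of TPM, which weights longer transcripts more, the difference was -3.98 percentage points for PDK1 instead of -1.86 and 0.24 for ALDOC instead of 0.49. The shares of SLC2A3, PDK2, PDK4 and the 3 PFKFB enzymes overlapped.

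**Figure D4:**
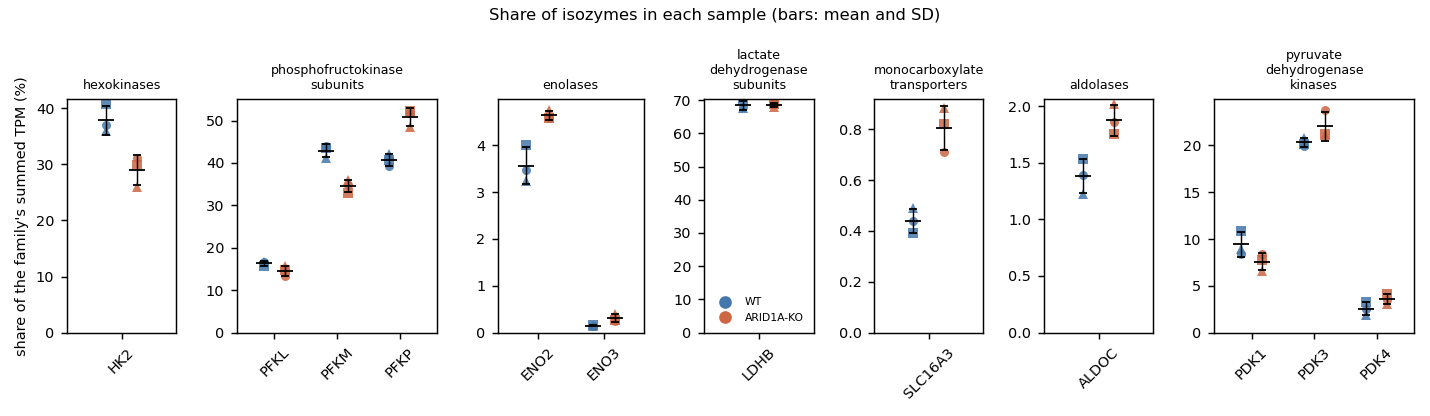
Share of isozymes in the summed TPM of their family, for HK2 of HK1 and HK2 (percent, linear axes from 0), 1 point per sample, with bars for the mean and SD of 3 WT and 3 ARID1A-KO samples. PFKP rises from 40.7 to 50.9% as PFKM drops from 42.9 to 34.6% and HK2 from 37.9 to 29%, while LDHB has a mean of 68.5% in both groups.

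Genes next to these in the same pathways were counted from lists of 91 genes, of which 73 had enough counts and 34 (46.6%, against 36.2% of all genes tested) changed, 17 in each direction, with a median log2 fold change of 0.029. Of 9 other glycolytic enzymes tested, 2 changed (22.2%, against 36.2% of all genes tested). ENO4 was higher at 7 to 13 counts in WT and 14 to 32 in ARID1A-KO samples (1.17, edgeR adjusted p = 0.0479). Leaving out WT replicate 3 or 4 or ARID1A-KO replicate 4 or 5 ended the call (adjusted p at most 0.150), as did unstranded counts at 0.51. ENO4 had enough counts to be tested only through its ARID1A-KO samples. PGM1, which links glycogen to glycolysis, fell by 0.28 on the log2 scale (edgeR adjusted p = 0.0252). The PGM1 call was lost without WT replicate 5 (-0.21, adjusted p = 0.0777) or ARID1A-KO replicate 3, 4 or 5 (-0.30, -0.30 and -0.23), and with the neighbours' median taken off (-0.19, adjusted p = 0.101). Of 7 other pentose phosphate genes tested, 2 changed (28.6%, against 36.2% of all genes tested). PRPS1, which turns ribose phosphate into the nucleotide precursor, fell by 0.31 on the log2 scale (edgeR adjusted p = 0.00439). DERA, which also handles deoxyribose phosphate, fell by 0.24 on the log2 scale (edgeR adjusted p = 0.0223). The DERA call was lost on leaving out any sample but WT replicate 3, at -0.26 without ARID1A-KO replicate 4 to -0.20 without ARID1A-KO replicate 5, and PRPS1 and DERA no longer passed with the medians of their neighbours taken off (-0.17 and -0.050).

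Among 15 other sugar and monocarboxylate carriers and LDH genes tested, 5 rose and 4 fell (60.0% of them, against 36.2% of all genes tested). SLC2A2, the liver glucose carrier, had enough counts to be tested only through its WT samples. It held 36, 14 and 22 counts in WT and 0, 4 and 11 in ARID1A-KO samples. Those counts do not overlap but are few (log2 fold change -2.37, edgeR adjusted p = 0.0200), and SLC2A2 no longer passed without WT replicate 3 (-2.0), WT replicate 5 (-2.36) or ARID1A-KO replicate 4 (-2.40), or with its neighbours' median taken off (-1.84, adjusted p = 0.0631). LDHC, the testis lactate dehydrogenase, rose from 2.22 ± 0.502 to 5.81 ± 0.649 TPM (log2 fold change 1.39, edgeR adjusted p = 0.00035), and LDHD, which acts on D-lactate, rose from 0.318 ± 0.0899 to 0.786 ± 0.294 TPM (1.34, edgeR adjusted p = 0.0123, but 0.95 and 0.0581 with its neighbours' median taken off). Neither came near the level of LDHA or LDHB. A pair of genes chosen after their values were seen bears on lactate and pyruvate transport. BSG (basigin), the chaperone that brings MCT1 and MCT4 to the membrane, rose from 375 ± 27.2 to 719 ± 49.1 TPM (0.94, edgeR adjusted p = 2.72e-05), in the opposite direction to SLC16A1. MPC1, a subunit of the mitochondrial pyruvate carrier, fell from 38.0 ± 2.89 to 22.3 ± 2.50 TPM (-0.76, edgeR adjusted p = 0.000293), and its neighbours had a median of -0.49.

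In the pyruvate dehydrogenase complex, PDP1 and PDPR, of the phosphatase that undoes the work of the kinases, rose and PDHB fell. Of its 8 genes 37.5% changed, against 36.2% of all genes tested. PDP1, the catalytic subunit, rose by 0.50 on the log2 scale (31.2 ± 3.19 to 43.8 ± 2.64 TPM, edgeR adjusted p = 0.000843), and PDPR, the regulatory subunit, by 0.35 (edgeR adjusted p = 0.00151). The neighbours of PDPR had a median of 0.55, and with it taken off PDPR was at -0.20 (edgeR adjusted p = 0.0296). PDHB, a subunit of the enzyme itself, fell by 0.30 on the log2 scale (edgeR adjusted p = 0.00747), and the other 5 of 8 did not pass, among them the second phosphatase, PDP2 (0.17, edgeR adjusted p = 0.0874). In gluconeogenesis, FBP1, which opposes phosphofructokinase, had 47, 17 and 26 counts in WT and 0 in all 3 ARID1A-KO samples, at least 10.5-fold lower when each ARID1A-KO library is set to 3 counts. FBP1 had enough counts to be tested only through its WT samples. PCK2, the mitochondrial PEP carboxykinase, rose from 17.1 ± 2.79 to 28.4 ± 3.40 TPM (0.74, edgeR adjusted p = 0.00243) and G6PC3 from 46.0 ± 1.78 to 58.1 ± 4.23 TPM (0.34, edgeR adjusted p = 0.0089).

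Hypoxia-inducible factors drive many glycolytic genes in low oxygen. Of 8 genes of this system, 3 changed (37.5%, against 36.2% of all genes tested). EPAS1 (HIF-2 alpha) fell from 22.1 ± 2.82 to 8.62 ± 1.68 TPM (log2 fold change -1.35, edgeR adjusted p = 5.14e-05). HIF3A fell from 0.530 ± 0.216 to 0.0670 ± 0.0242 TPM (-2.99, edgeR adjusted p = 0.000288). EGLN1, which marks the factors for breakdown when oxygen is present, rose by 0.37 on the log2 scale (edgeR adjusted p = 0.00589). HIF1A was not among those that changed (155 ± 5.60 and 142 ± 12.9 TPM, -0.13, edgeR adjusted p = 0.165). Of 17 hypoxia targets outside glycolysis, 12 changed (70.6%, against 36.2% of all genes tested), 6 in each direction, and the median was -0.0061. The largest changes were in CA9 (19, 11 and 21 counts in WT and 2, 2 and 4 in ARID1A-KO samples, -2.74, edgeR adjusted p = 0.0023), EGLN3 (7.73 ± 1.21 to 2.44 ± 0.264 TPM, -1.66, edgeR adjusted p = 2.51e-05) and STC2 (0.338 ± 0.0635 to 0.647 ± 0.0452 TPM, 0.93, edgeR adjusted p = 0.00549). CA9, like HIF3A, had enough counts to be tested only through its WT samples. Rises and falls occurred among both the hypoxia targets and the 35 genes, but 70.6% of the targets changed against 37.1% of the 35 genes. A link between them was not tested. Of the 4 glucose-responsive MondoA genes tested, 0 changed by edgeR (against 36.2% of all genes tested), 0 had an unadjusted p under 0.05 and DESeq2 called 0.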

How the data were processed

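RNA-seq libraries of 3 WT and 3 untreated ARID1A-KO samples were used, grouped by the genotype in the labels. The labels give poly(A) RNA as the molecule and a stranded total RNA kit. In the authors' Roddy workflow, STAR aligned the read pairs to hg19/GRCh37 and featureCounts counted them per gene (annotation v.29 lift 37, per the methods). Some genes carry older names in the deposited counts, such as C12orf5 for TIGAR, so which annotation was used was not settled. The deposited counts are whole numbers without normalization, unstranded and for each strand. The deposited TPM values were scaled by the authors, and the reverse-stranded TPM column that has the same total in every sample was used for levels and isozyme shares. Other columns of TPM and FPKM were not used.

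Reverse-stranded counts of all genes were filtered with filterByExpr, scaled by TMM and compared by the quasi-likelihood test of edgeR 4.0.16 in R 4.3.3 with genotype alone, and p-values were adjusted by Benjamini-Hochberg over 19599 genes. Each gene listed was called at an adjusted p under 0.05. The total of 54512105 to 84088708 counts per sample makes counting error matter only for genes of few counts, and edgeR's common coefficient of biological variation came to 0.111. Isozyme shares were tested with two-sided exact permutation tests (SciPy 1.17.1, Python 3.11.15). Intervals are 95% intervals of the fit. The scripts were tested on simulated data.

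The members and gene lists were chosen with earlier results of these data known. All members are named, with values in every sample for changed genes of an absolute log2 fold change of at least 0.5 and for the most abundant gene of each role. Other changed genes have theirs added where a result turns on them. From each other list, up to 3 changed genes with the largest log2 fold change are named, and near copies of a member. BSG, MPC1, PDP2, HIF1A and SLC16A7 fall outside this rule and were named after their values were seen. Genes were matched by name or, for TIGAR, RPEL1 and SHPK, by Ensembl identifier, TIGAR and RPEL1 being listed under other names. PECAM1 was not analysed here. Pseudogene entries of 15 members (109 in all) held under 1% of the count of each. Entries on the same strand overlap 9 members. Promoter sequences are from RefSeq (GRCh38.p14), with 250 bases before the start.

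The alternatives were unstranded counts, RLE, upper-quartile or no scaling beyond totals, DESeq2 1.42.0, a filter of 10 counts in each sample or no filter, a replicate block, offsets for exonic length or GC content (loess, span 0.3), the median of neighbours within 5 Mb taken off, pseudogene counts added, an adjusted p under 0.01, each sample left out, and for shares unstranded TPM, pseudogene TPM and CPM.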

Additional observations from a re-analysis of the deposited data

How the results depend on the processing

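Of the 13 changed genes, 6 (SLC2A1, PFKP, ALDOC, ENO3, LDHA and SLC16A1) kept their call under all 18 alternatives to the fit, and 16 of the 22 that did not change passed in none of them. The number of genes called was 4414 at an adjusted p under 0.01 and 5285 to 7050 with 1 sample left out (7099 with all). The number of members called was 7 at an adjusted p under 0.01 (5 higher and 2 lower), 8 without ARID1A-KO replicate 4 and 8 to 13 over the samples left out in turn. DESeq2 called 6884 genes and 14 members. The median over members was -0.039 with the GC content offset. Small log2 fold changes of members that did not pass turned sign. TKT was at 0.0070 with unstranded counts, 0.0037 with upper-quartile scaling, 0.034 with library totals alone and 0.063 with the exonic length offset. With library totals alone HK2 was at 0.0078 and PGLS at 0.035. With the exonic length offset TPI1 was at -0.044, PGD at -0.027 and RPE at -0.0095, and with the GC content offset PFKL was at -0.14, TPI1 at -0.078 and PGD at -0.039. With the neighbours' median taken off PGK1 was at 0.052, PGD at -0.045, PGLS at 0.35, TALDO1 at -0.19, LDHB at 0.065 and PDPR at -0.20, which follows from the sign of that median. On leaving out 1 sample the range was -0.033 to 0.070 for TPI1, -0.27 to 0.11 for PGLS, -0.14 to 0.12 for HK2, -0.019 to 0.090 for PGD, -0.16 to 0.034 for RPIA, -0.097 to 0.065 for TKT and -0.15 to 0.013 for PDK2. With CPM in place of TPM the difference in share, in percentage points, was 1.84 for PDK2 (-0.87 with TPM) and 0.51 for SLC16A3 (0.37 with TPM). ENO4 no longer passed with DESeq2 (adjusted p = 0.123), the exonic length offset (0.0557) or the neighbours' median taken off (0.142). For the other shifts the cause was not tested.

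Whether the replicate numbers pair the samples was not settled. For samples with different numbers, the correlation of their deviations from their group means ran from -0.61 to 0.49. The correlation of the deviations of same-numbered samples from their group means was -0.24, 0.49 and 0.32 for numbers 3, 4 and 5, and with the replicate number as a block 7477 genes and 12 members (8 higher and 4 lower) were called, with GAPDH (-0.25, adjusted p = 0.0508) and PGAM1 (-0.20, adjusted p = 0.0623) lost and ENO2 (0.21, adjusted p = 0.0376) gained, a members' median of 0.030 and 37 genes of the other lists. ARID1A was at -2.74 with the block. Depth limits the low genes most, such as SLC16A3 at 67 to 147 counts, PDK4 at 48 to 121 counts, and the pathway genes FBP1, CA9 and SLC2A2.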
